A study of Mus musculus with 12 samples.

Results

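The livers of adult male mice born to mothers on an obesogenic diet were compared between sons weaned onto the same obesogenic diet (OO) and sons weaned onto control chow (OC). The comparison was defined by diet alone and used 6 of the study's 12 libraries, 3 OO and 3 OC, over all 386 mature miRNA rows of the deposited table. All animals were wild-type males of the C57BL/6 strain, killed fasted at postnatal day 84 (12 weeks). Every mother of these 6 sons had received the obesogenic diet, which held 10% simple carbohydrates and 20% lipids and came with sweetened condensed milk (55% carbohydrates and 8% lipids). The control chow (RM1) held 7% simple carbohydrates and 3% lipids. The study used 35 dams, and their litters were set to 6 pups on day 3 and weaned on day 21. The other 6 libraries, sons of control-fed mothers on control chow (CC) or the obesogenic diet (CO), with 3 each, served to estimate the spread between libraries and as a parallel comparison. The labels name no mother or litter, so brothers may be present and a p-value reflects only how far these libraries scatter.

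MicroRNAs are short RNAs cut from hairpin precursors, from which a 5p and a 3p arm can each be kept. A mature miRNA pairs with messenger RNAs mainly through its seed, bases 2 to 8 from its 5′ end, and lowers their translation and stability. In liver, hepatocytes make most of the RNA, and miRNAs such as miR-122, miR-192 and miR-33 are known for their parts in lipid, cholesterol and cell-identity programmes. Because bulk liver was sequenced, fewer cells of a type and less of a miRNA per cell cannot be told apart.

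Mature sequences of miRNAs described below are given here, 5′ to 3′, with the seed in capitals. Of those shown, only miR-182-5p passed the test. RefSeq sequences (GRCm38.p6) were matched by name to 320 of the 386 rows. miR-5099, which also passed, had no match, so its sequence is not shown. The first 3 are the arms measured from 1 genomic cluster, shown because each was lower in OO by value and their seeds are alike.
miR-182-5p: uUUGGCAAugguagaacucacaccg
miR-183-5p: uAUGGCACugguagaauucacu
miR-96-5p: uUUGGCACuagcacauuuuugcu
The seeds of miR-182-5p and miR-96-5p differ by A8C, counted from the 5′ end with the base of miR-182-5p first. All 3 seeds contain UGGCA, and those of miR-96-5p and miR-183-5p share UGGCAC. No other matched row had any of these 3 seeds. The next 6 are a selection from the miRNAs among the smallest p-values whose OO and OC libraries did not overlap. Others of that kind, such as miR-210-3p, are described below without a sequence.
miR-33-5p: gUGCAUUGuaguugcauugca
miR-31-5p: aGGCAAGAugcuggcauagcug
miR-1933-3p: cCAGGACCaucagugugacuau
miR-674-3p: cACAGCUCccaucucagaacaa
miR-223-3p: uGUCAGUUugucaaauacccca
miR-335-5p: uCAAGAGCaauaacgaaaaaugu
None of these 6 shared its seed with another matched row. The last 2 had large mean differences that were smaller without OO replicate 3.
miR-149-5p: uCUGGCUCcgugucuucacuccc
miR-582-3p: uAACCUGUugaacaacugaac

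The sons' diet was accompanied by a lower level of 2 miRNAs, miR-5099 and miR-182-5p, and of no other row at the threshold. Values are CPM, which express each row's reads relative to its library's total, tested with limma on log2(CPM + 1) over all 12 libraries, two-sided, with Benjamini-Hochberg adjustment over the 386 rows and an adjusted p under 0.05 as the threshold. Lower calls made up 0.518% of the rows and higher calls 0% (limma). At an unadjusted p under 0.05, 28 rows stood out against 19.3 that the number of tests alone would give, 10 lower (2.59%) and 18 higher (4.66%). With 1 library left out, that number was 15 without OO replicate 3, 16 without OC replicate 2 and 17 without OC replicate 1 or OC replicate 3. It was 21 without OO replicate 2, 34 without OO replicate 1 and 46 without CO replicate 3. Without any 1 of the other libraries it was 23 to 27. Such fits also have fewer libraries. All 3 OO libraries lay below all 3 OC libraries for 20 rows (5.18%) and above them for 40 rows (10.4%). With median-of-ratios scaling that split was 30 below and 30 above, and with TMM scaling 24 below and 37 above. At an unadjusted p under 0.05 it was 13 lower and 19 higher with the first, and 11 lower and 20 higher with the second. The smallest exact permutation p that 3 libraries against 3 can give is 0.1.

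miR-5099 was at 478, 448 and 391 CPM in the OC libraries and at 243, 213 and 226 CPM in the OO libraries. Every OO library was well below every OC library, and the 3 OO values lay close together. The fall was -0.95 on the log2 scale (SE 0.147, 95% interval -1.27 to -0.62, limma adjusted p = 0.0157), a linear ratio of 0.517. Counting error was small beside this, since each value rested on 2363 to 10601 reads.

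miR-182-5p, best known from sensory organs and from a lipid-regulated operon in liver, was at 2324, 1824 and 2872 CPM in OC. It was at 915, 1328 and 924 CPM in OO. The groups did not overlap, although the lowest OC and the highest OO library, both replicate 2 of their group, were not far apart. The miRNA fell by 1.15 on the log2 scale (SE 0.217, 95% interval -1.62 to -0.67, limma adjusted p = 0.0435), a linear ratio of 0.451. It was the more abundant of the 2 miRNAs that fell. Its share of all listed values was 0.232 ± 0.0521% in the OC group and 0.105 ± 0.0233% in the OO group (SD, n = 3 each).

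Neither call passed in every fit with 1 library removed. The log2 differences stayed between -1.03 and -0.88 for miR-5099 and between -1.32 and -0.99 for miR-182-5p. Such fits also have fewer libraries. With 1 library removed, 0 calls were left when that library was OC replicate 1, OC replicate 2, OO replicate 1, OO replicate 2 or OO replicate 3, while miR-5099 alone passed without OC replicate 3. A title stem of unstated meaning is common to OC replicate 2 and OO replicate 3, and without both of these libraries each miRNA had a limma adjusted p of 0.151. Then miR-5099 differed by -0.92 and miR-182-5p by -1.23 on the log2 scale. The titles of all OC libraries and of OO replicate 2 end in the letter A and those of the other OO libraries do not, so whatever the letter marks cannot be fully told apart from diet.

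**Figure D1:**
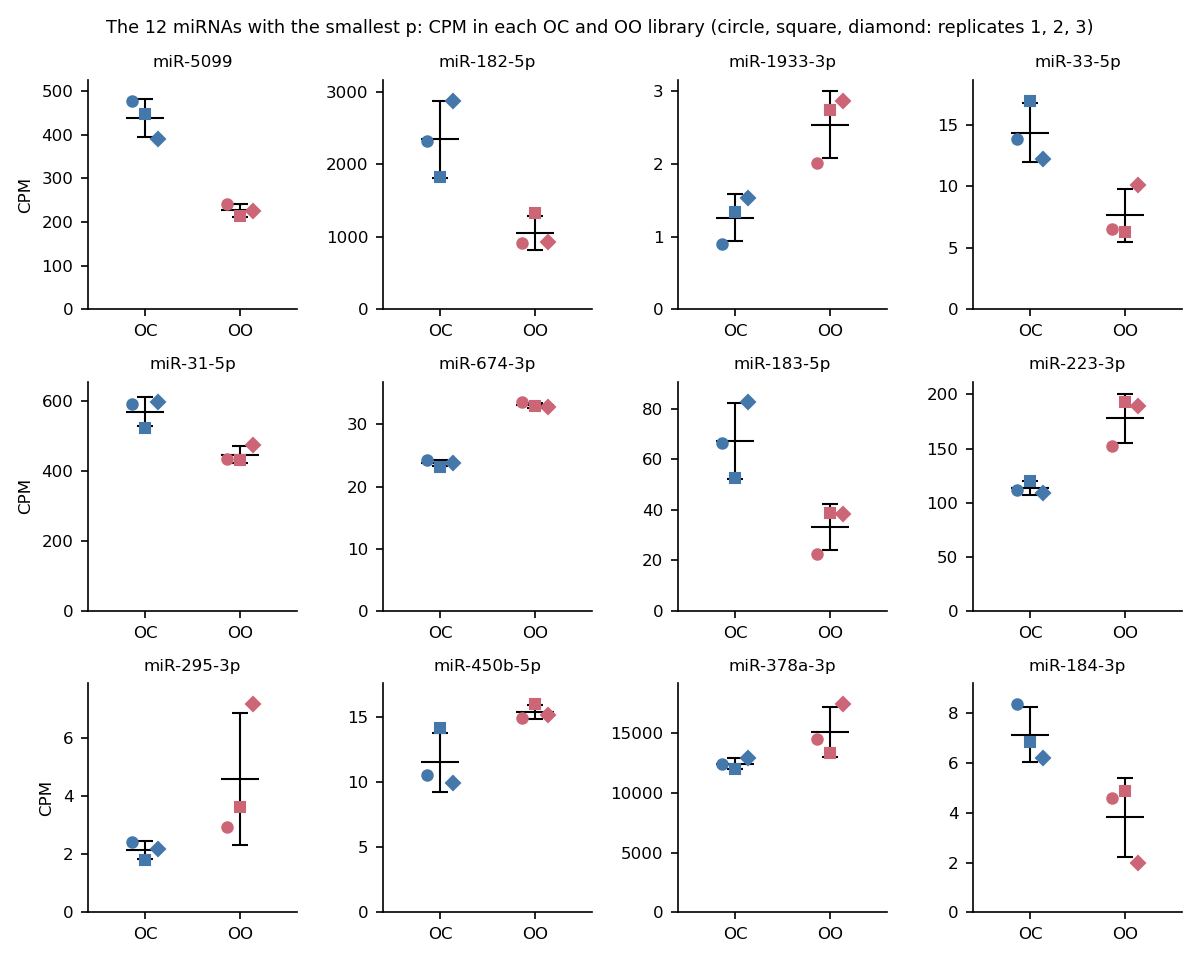
CPM of the 12 miRNAs with the smallest p in each OC (blue) and OO (red) library, on linear axes from 0; horizontal bars are group means and whiskers SD (n = 3). Of these, miR-5099 and miR-182-5p passed the test, and the OO values of miR-5099 lie between 213 and 243 CPM against 391 to 478 CPM in OC.

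The gene for miR-182 lies on the minus strand of chr6:30165918-30165992 (GRCm38), outside any other annotated gene, and shares a stretch of chromosome 6 from 30165918 to 30169737 with the genes for miR-96 and miR-183. Its hairpin is shown with both mature arms in capitals, since only the 5p arm was listed.
Mir182: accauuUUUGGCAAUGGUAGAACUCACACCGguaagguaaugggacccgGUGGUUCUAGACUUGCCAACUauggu
The cluster is transcribed together, and its members are known to be controlled by the sterol regulatory element binding proteins, which drive lipid synthesis. miR-183-5p was at 66.2, 52.6 and 82.5 CPM in OC and at 22.6, 38.6 and 38.3 CPM in OO. Its OO libraries were all below its OC libraries, but the difference of -1.01 (log2, SE 0.349) did not pass (limma adjusted p = 0.673). miR-96-5p was near the bottom of the table, at 3.65, 3.37 and 7.68 CPM in OC and 2.43, 3.72 and 2.39 CPM in OO. Its groups overlapped, and its difference of -0.56 (log2, SE 0.322) did not pass either (limma adjusted p = 0.794).

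Summed over the 3 arms, the cluster came to 1879 to 2962 CPM in OC and 940 to 1371 CPM in OO, a ratio of means of 0.453. Nearly all of that sum was miR-182-5p. Among the rows matched to RefSeq, 35 groups had at least 2 hairpins within 10 kb of each other. This one had the largest median difference in size, at -1.01 on the log2 scale, and 5 of the groups had a median beyond 0.25 in either direction. These medians are descriptions, as neighbours share a transcript.

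**Figure D2:**
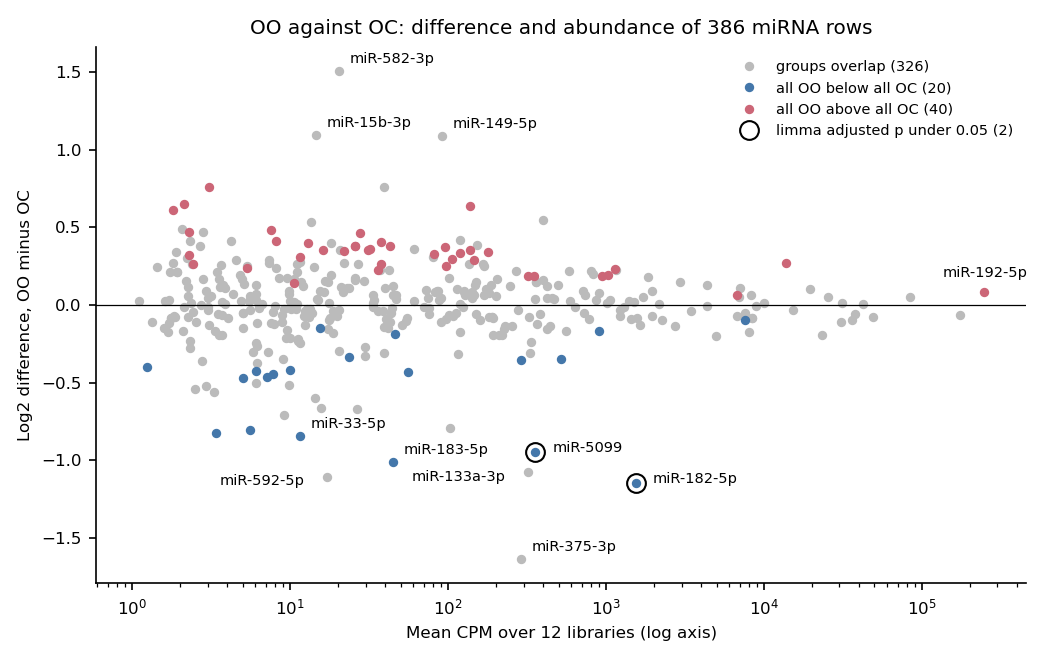
Log2 difference, OO minus OC, of 386 miRNA rows (points) against their mean CPM over 12 libraries on a log axis; colour marks rows whose OO libraries all lie below (20) or above (40) the OC libraries, and rings mark the 2 rows with a limma adjusted p under 0.05. Both ringed miRNAs lie among the rows above 100 CPM, and the grey points far from 0 have overlapping groups.

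Most rows differed little. The median log2 difference over all rows was 0.02, with quartiles at -0.10 and 0.16. The median was -0.01 with median-of-ratios scaling, -0.03 without OO replicate 3, -0.0047 without OC replicate 2, -0.04 without the libraries that share a title stem and 0.07 without OC replicate 1. It was above 0 in 209 rows and below 0 in 177, and beyond 1 in either direction in 8 rows. The 95% interval lay inside ±1 for 337 of the 386 rows and inside ±0.5 for 141, so a change of 2-fold was outside the interval for most rows, while smaller changes were not detectable for many. Precision followed abundance: the median SE was 0.135 for the 52 rows at 1000 CPM or more, which held 96.8% of all values, and 0.233 for the 125 rows under 10 CPM.

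The composition of the miRNA pool was as variable within diets as between them. Between an OC and an OO library, 2.95% to 6.31% of values were placed on different rows (median 4.42%), against 4.03% to 5.41% between OC libraries and 2.65% to 5.45% between OO libraries. miR-192-5p, the most abundant row here and known from hepatocytes and gut epithelium, took 23.4 ± 1.14% (SD) of values in the OC group and 24.8 ± 0.273% in the OO group, with 3 libraries each. Every OO library was above every OC library for it, yet the log2 difference was 0.09 (SE 0.0768, limma adjusted p = 0.905). miR-122-5p, the hepatocyte miRNA required for normal cholesterol metabolism, took 2.38 ± 0.171% in OC and 2.07 ± 0.137% in OO. Its groups overlapped, and its log2 difference was -0.20 (limma adjusted p = 0.811).

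The other leading miRNAs overlapped between the diets. miR-22-3p differed by -0.07, miR-148a-3p, a regulator of the LDL receptor, by 0.05, miR-21a-5p, known from liver injury and fibrosis, by -0.08 and miR-30a-5p by 0.01 on the log2 scale. Their 95% intervals all lay inside ±0.5.

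Of the 24 rows with the smallest unadjusted p, 15 were higher in OO and the rest lower. Below miR-5099 and miR-182-5p, the lower ones began with miR-33-5p, which is encoded within an intron of Srebf2 (chr15:82198122-82198190, plus strand, GRCm38) and represses the cholesterol exporter ABCA1. It was at 13.8, 16.9 and 12.2 CPM in OC and at 6.52, 6.27 and 10.1 CPM in OO. The groups did not overlap, with OO replicate 3 the closest to OC. The log2 difference was -0.84 (SE 0.227, 95% interval -1.34 to -0.35), and the limma adjusted p was 0.304. Its 3p arm, miR-33-3p, had overlapping groups and a log2 difference of -0.08.

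miR-31-5p, an epithelial miRNA, was at 592, 524 and 597 CPM in OC and at 434, 432 and 476 CPM in OO. The groups were apart with little spread in either, and the log2 difference was -0.35 (SE 0.0979, limma adjusted p = 0.314). Its 3p arm lay lower in the same way, at 10.7, 10.4 and 11.2 CPM in OC and 6.94, 7.80 and 8.69 CPM in OO. That difference was -0.42 on the log2 scale (SE 0.252, limma adjusted p = 0.838). With sample quality weights in limma, miR-31-5p (log2 difference -0.40) and miR-33-5p (-0.92) passed as well, each at an adjusted p of 0.0229.

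The remaining lower rows were less abundant than miR-31-5p. miR-184-3p, known from the eye and nervous tissue, was at 8.38, 6.86 and 6.21 CPM in OC and 4.60, 4.88 and 2.01 CPM in OO, with no overlap and a log2 difference of -0.81, or -0.50 without OO replicate 3. miR-1247-5p, from the imprinted Dio3 region, overlapped between groups and differed by -0.67, or by -1.20 without the libraries that share a title stem. miR-488-3p (-0.40) and miR-3096a-5p (-0.47) did not overlap but had means under 10 CPM, and the latter was at -0.25 without OO replicate 2. For these 4, the limma adjusted p was 0.673.

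Among the higher rows, miR-1933-3p, from an intron of Ugp2, had the smallest p. It was at 0.901, 1.34 and 1.54 CPM in OC and at 2.01, 2.74 and 2.86 CPM in OO. The groups did not overlap, but the values stood for only 20 to 59 reads each. The log2 difference was 0.65 (SE 0.160, limma adjusted p = 0.228). miR-674-3p was at 24.2, 23.2 and 23.8 CPM in OC and at 33.5, 33.0 and 32.8 CPM in OO. Its values hardly varied within either group, and the log2 difference was 0.46 (SE 0.142). The limma adjusted p was 0.469, with the spread of this row estimated over all 12 libraries.

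miR-223-3p, the hallmark miRNA of neutrophils and other myeloid cells, was at 112, 120 and 109 CPM in OC and at 152, 193 and 190 CPM in OO. All OO libraries were above all OC libraries, and the log2 difference was 0.64 (SE 0.232, limma adjusted p = 0.673). The summed level of the 5 leukocyte markers was 2599 to 4093 CPM in OC and 2679 to 3060 CPM in OO, and 4 of the 5, all but miR-223-3p, were lower in OO by value.

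miR-378a-3p, from an intron of Ppargc1b, a coactivator of mitochondrial metabolism, was the most abundant of the 24. It was at 12410, 12039 and 12932 CPM in OC and at 14552, 13348 and 17469 CPM in OO. The groups did not overlap, though OO replicate 2 was close to OC replicate 3. The log2 difference was 0.27 (SE 0.103, limma adjusted p = 0.673), and 0.16 without OO replicate 3. Its 5p arm overlapped and differed by 0.31.

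miR-335-5p lies in an intron of Mest, an imprinted gene of adipose growth. It was at 100, 83.7 and 85.2 CPM in OC and at 118, 110 and 122 CPM in OO. Its OO libraries were all higher, with a log2 difference of 0.38 (SE 0.165). Its 3p arm was also without overlap and differed by 0.38 (SE 0.188). The limma adjusted p was 0.673 for the 5p arm and 0.700 for the 3p arm.

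miR-210-3p, the main hypoxia-responsive miRNA, was at 29.2, 30.8 and 30.6 CPM in OC and 34.7, 39.0 and 44.2 CPM in OO. These values did not overlap, and the log2 difference was 0.36. miR-455-3p (0.33), miR-450b-5p (0.40), miR-98-3p (0.35), miR-3068-3p (0.41) and miR-295-3p (0.76) were likewise above in every OO library. Without OO replicate 3, miR-98-3p was at 0.19, miR-3068-3p at 0.21 and miR-295-3p at 0.44. miR-221-5p (0.40) overlapped. None of these passed, each with a limma adjusted p of 0.673.

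A further 3 of the 24 had log2 differences above 1 but overlapping groups. miR-582-3p, from an intron of the phosphodiesterase gene Pde4d, was at 11.5, 11.9 and 9.75 CPM in OC and at 11.4, 31.2 and 98.4 CPM in OO. OO replicate 1 was at the OC level, and OO replicate 3 stood far above the rest. The log2 difference was 1.504 (SE 0.595, limma adjusted p = 0.673), and 0.73 without OO replicate 3. miR-149-5p, from an intron of Gpc1, was at 53.4, 52.4 and 80.4 CPM in OC and at 98.3, 80.1 and 281 CPM in OO. Again OO replicate 3 was far above the others, and the log2 difference of 1.09 became 0.54 without it.

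miR-15b-3p was at 9.28, 3.66 and 17.5 CPM in OC and at 16.9, 18.5 and 23.7 CPM in OO. The spread lay mostly among the OC libraries, and the log2 difference of 1.09 became 0.57 without OC replicate 2. miR-15b-5p, the arm kept in larger amounts, was above in every OO library with a log2 difference of 0.29. OO replicate 3 was the furthest of the 3 OO libraries in 186 of 386 rows, against 110 for OO replicate 1 and 90 for OO replicate 2.

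The balance of the arms was tested directly, as a 5p to 3p ratio that does not depend on scaling between libraries. Of 99 hairpins with both arms listed, 69 had differences of the same sign in both arms. The 57 hairpins with both arms at a mean of 10 CPM or more gave 0 calls in limma (0%), with 0 at an unadjusted p under 0.05. miR-455 had the smallest p. Its log2 5p to 3p ratio averaged 0.12 ± 0.134 (SD, n = 3) for OC and -0.20 ± 0.225 (SD, n = 3) for OO, a difference of -0.33 (SE 0.152, limma adjusted p = 0.839). For miR-15b the log2 ratios were 3.35, 4.38 and 2.45 in OC and 2.57, 2.64 and 2.58 in OO. The OC libraries were widely scattered and the OO libraries tight, and the difference was -0.80 (SE 0.391, limma adjusted p = 0.839). The third, miR-676, differed by 0.25 (SE 0.134, limma adjusted p = 0.839).

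The same change of diet in sons of control-fed mothers was measured in other animals, as CO against CC, so the 2 comparisons share no libraries, though limma estimated 1 spread for both. In CO against CC, the titles of all CC libraries end in the letter A and those of all CO libraries do not. Whatever the letter marks cannot be told apart from diet in that comparison. miR-5099 differed there by -1.32 (SE 0.147) and miR-182-5p by -0.82 (SE 0.217), against -0.95 and -1.15 after obesogenic mothers. The CO-CC difference passed for miR-5099 (limma adjusted p = 0.000598) and not for miR-182-5p (limma adjusted p = 0.166). The test of whether the difference depends on the mother's diet did not pass for either: the interaction was 0.38 (95% interval -0.08 to 0.83) for miR-5099 and -0.33 (95% interval -0.997 to 0.345) for miR-182-5p. miR-31-5p differed by -0.51 in CO against CC, which passed there (limma adjusted p = 0.0351), and its interaction was 0.16 (95% interval -0.15 to 0.46).

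Over all rows the interaction of both diets gave 0 calls in limma (0%), with 15 rows at an unadjusted p under 0.05. Its 95% interval lay inside ±1 for 245 of the 386 rows, and for the others it reached an interaction of 2-fold or more. Smaller interactions could be missed in either set. Of the 24 rows with the smallest p after obesogenic mothers, 21 had the same sign after control mothers, against 214 of all 386 rows (55.4%). The 3 smallest interaction p-values belonged to miR-335-5p, miR-330-3p and let-7c-1-3p. miR-335-5p was higher by 0.38 after obesogenic mothers and lower by value after control mothers (-0.40), an interaction of 0.78 (SE 0.234, limma adjusted p = 0.773). miR-330-3p (interaction 0.85) and let-7c-1-3p (0.60) averaged under 10 CPM, and each had a limma adjusted p of 0.773.

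**Figure D3:**
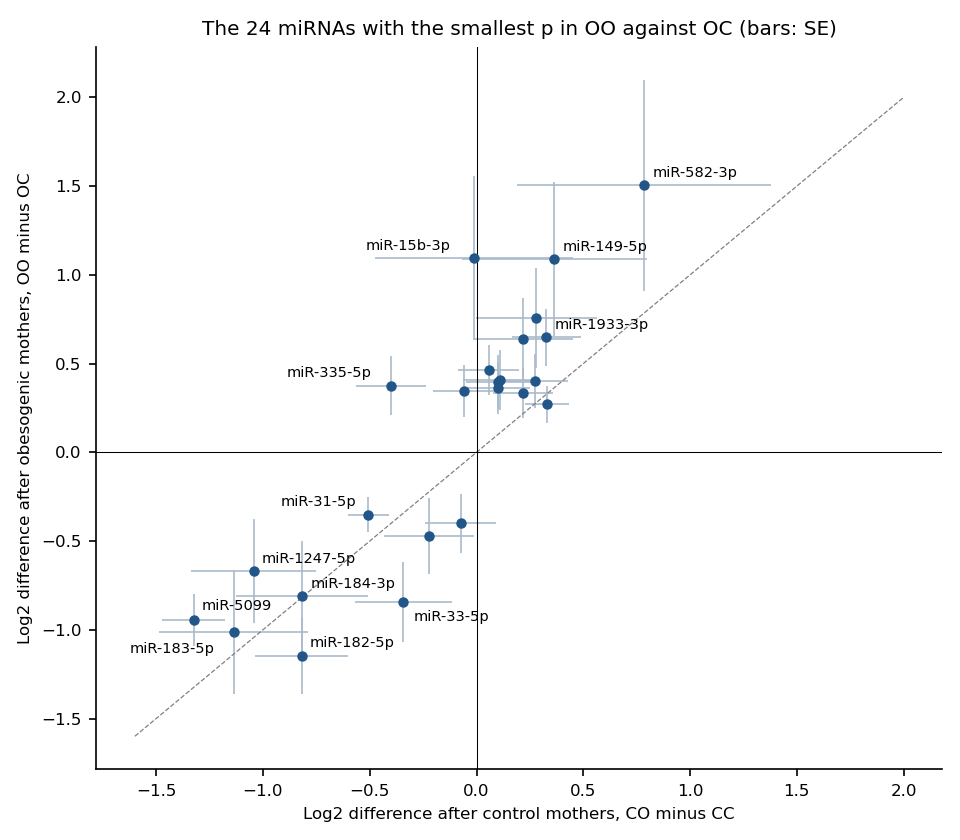
Log2 differences of the 24 miRNAs with the smallest p in OO against OC, after obesogenic mothers (vertical axis) and after control mothers (horizontal axis); bars are SE and the dashed line marks equal differences. Of the 24 points, 21 lie in the lower left or upper right part, and miR-335-5p has opposite signs.

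Groups of miRNAs with a shared role were described by their counts and medians beside the median of 0.02 over all rows, as their members were chosen with results of these data known. In the cholesterol and fatty acid list, 11 of 21 measured members were higher and 10 lower, with a median of 0.01. It held miR-182-5p, which passed, where 0.518% of all rows passed as lower. In it 3 members lay below and 3 above without overlap, where 5.18% and 10.4% of all rows did. Its median turned to -0.03 with median-of-ratios and -0.01 with TMM scaling, and no other list's median changed sign. The insulin and glucose list had 8 of 20 members higher and a median of -0.03. miR-143-3p, which impairs insulin signalling in obese liver, differed by -0.10, and miR-103-3p and miR-107-3p, regulators of insulin sensitivity, by 0.02 and 0.22. All 3 overlapped between groups.

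The hepatocyte list had a median of 0.04 with 8 of 13 members higher. miR-802-5p, known to be raised in obese liver, was at 442, 272 and 289 CPM in OC and at 293, 401 and 918 CPM in OO. OO replicate 3 was again the highest and OO replicate 1 lay within the OC range, so the groups overlapped (log2 difference 0.54, SE 0.482). The let-7 family (9 members, median -0.01) and the miR-17-92 family clusters (10 members, median -0.0019) had 4 and 5 members higher. Of 13 groups of at least 3 matched rows that share a seed, 0 had a median beyond 0.25 in either direction.

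In the stellate cell and fibrosis list, 7 of 13 members were higher, with a median of 0.07, and 5 were above in every OO library, as were 10.4% of all rows. These included miR-199a-5p, which was at 170, 187 and 160 CPM in OC and at 214, 218 and 220 CPM in OO. Its groups did not overlap, and its log2 difference was 0.34 (SE 0.152, limma adjusted p = 0.673). The most abundant members, miR-21a-5p, miR-143-3p and miR-29a-3p, overlapped between groups, with log2 differences of -0.08, -0.10 and -0.0045. The inflammation and steatohepatitis list had a median of -0.07 (6 of 13 higher). Without overlap, 2 members lay above, miR-223-3p and miR-125b-5p (0.19), and 1, miR-31-5p, below, where 10.4% and 5.18% of all rows did.

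The list of miRNAs within introns of metabolic or imprinted genes had the highest median, 0.27, with 8 of 10 members higher. Without overlap, 4 lay above and 1, miR-33-5p, below, where 10.4% and 5.18% of all rows did. It held both arms of miR-378a and miR-335, so its members are not independent. The hypoxia and p53 list had 6 of 7 members higher and a median of 0.09. Within it miR-34a-5p, a p53 target raised in fatty liver, was at 34.6, 24.4 and 31.1 CPM in OC and at 28.0, 42.9 and 109 CPM in OO. Only OO replicate 3 stood clearly apart, and the groups overlapped (log2 difference 0.76, SE 0.431, limma adjusted p = 0.794). The biliary and other epithelium list had a median of 0.05 with 6 of 11 higher. Its 3 members below without overlap were miR-31-5p, miR-182-5p and miR-183-5p, beside 5.18% of all rows, and the last 2 share a cluster.

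**Figure D4:**
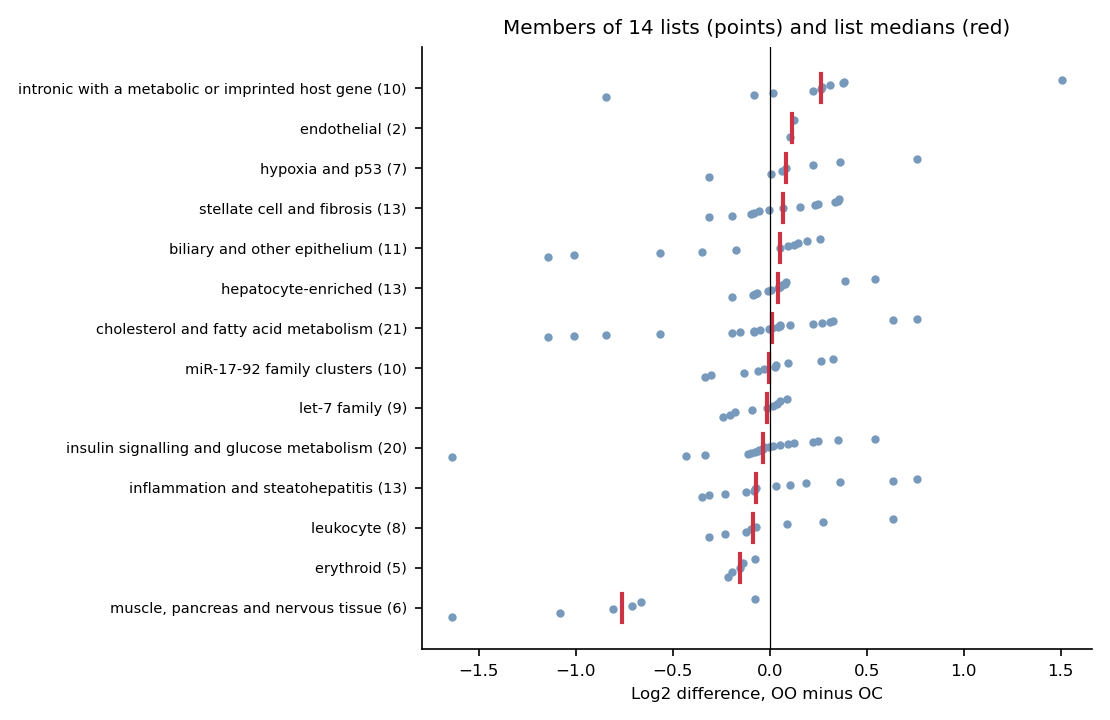
Log2 differences, OO minus OC, of the measured members (points) of 14 lists with their medians (red bars) and the number of members in brackets. Medians lie between -0.15 and 0.27 except for the muscle, pancreas and nervous tissue list, whose median is -0.76.

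Markers of other cell types were compared as sums. The 6 hepatocyte markers came to 337012 to 359223 CPM in OC and 356787 to 368249 CPM in OO. The 5 biliary or epithelial markers of the miR-200 family and miR-141 came to 892, 397 and 396 CPM in OC. In OO they came to 626, 681 and 399 CPM, so the groups overlapped, and only OC replicate 1 was above every OO library. Whether the number of epithelial cells bore on miR-182-5p or miR-31-5p was not tested. Erythroid markers, with sums of 2950 to 5242 and 2943 to 4532 CPM, and stellate or mesenchymal markers, with 36127 to 39666 and 33759 to 36736 CPM, overlapped as well. So did the endothelial pair miR-126-3p and miR-126-5p, at 23722 to 24653 and 24420 to 28052 CPM. The stellate or mesenchymal sum was mostly miR-143-3p. Of those 5 markers, 3 were above in every OO library, as were 10.4% of all rows, and 2 were lower by value. Their median log2 difference was 0.23, and 0 passed.

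The markers of other tissues varied most between single libraries. miR-375-3p, the pancreatic islet miRNA, was at 1734, 21.9 and 27.5 CPM in OC and at 39.98, 51.2 and 16.6 CPM in OO. OC replicate 1 alone was high, which made the mean log2 difference -1.64 with an SE of 1.63. miR-133a-3p, a muscle miRNA, was at 393, 54.3 and 440 CPM in OC and at 1137, 20.5 and 40.7 CPM in OO. Its high libraries were OC replicates 1 and 3 and OO replicate 1. The neural marker miR-9-5p reached 4.06 CPM at most in these 6 libraries. miR-206-3p, miR-216a-5p, miR-217-5p and miR-124-3p had no row in the table. Whether tissue carried along with the liver bore on the called miRNAs was not tested.

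Depth, in reads to which the values were scaled, was 18.8 ± 2.97 M in OC (range 16.9 to 22.2) and 14.7 ± 6.00 M in OO (range 10.5 to 21.5; SD, n = 3 each). OO replicate 2 was sequenced as deeply as the OC libraries. With log2 depth as a covariate, miR-5099 still passed (log2 difference -1.02, limma adjusted p = 0.0103) and miR-182-5p did not (log2 difference -1.04, SE 0.215, limma adjusted p = 0.116).

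**Figure D5:**
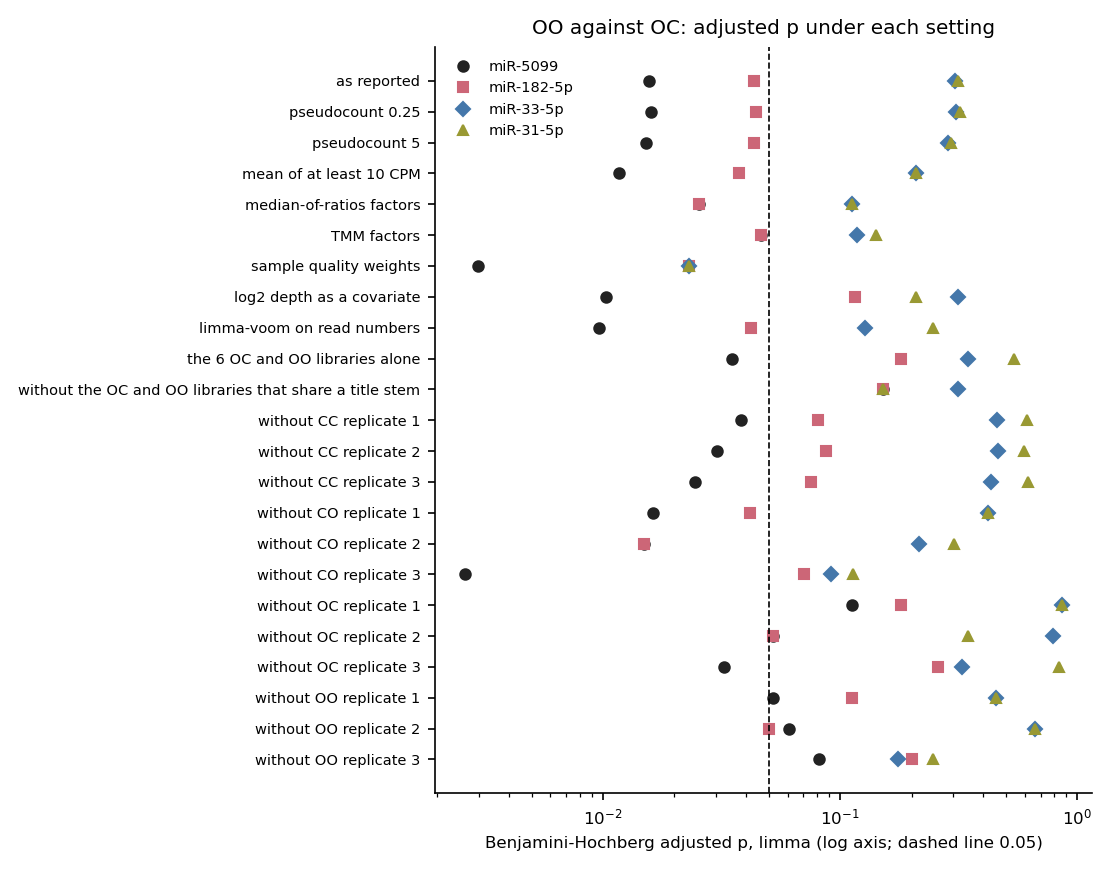
Benjamini-Hochberg adjusted p from limma for 4 miRNAs in OO against OC on a log axis, under each processing setting and each left-out library (rows); the dashed line is 0.05. miR-5099 is left of the line as reported (0.0157) and at 0.151 without the libraries that share a title stem, and miR-33-5p and miR-31-5p cross it only with sample quality weights (0.0229).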

How the data were processed

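Small RNA from mouse liver was sequenced after miRNeasy extraction and TruSeq small RNA library preparation, per the labels' protocols. Per the submitters' processing notes the aligner Bowtie (1.2.3) was among the tools. Not given in the sources used here are the genome build, the miRNA reference and the handling of reads that match more than 1 miRNA. The values deposited by the authors are CPM, in 1 table with 386 miRNA rows and 12 libraries, with columns matched to samples by the column number in each sample's description. All values were whole multiples of 1 step per library, within 0.001 reads, which gave the depth; reads are not independent molecules. Of the rows, 125 averaged under 10 CPM and 6 had values identical to another row's.

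Groups were taken from the diets in the labels. Replicate numbers follow accession order and pair nothing. limma 3.58.1 (R 4.3.3) was fitted with a mean-variance trend to log2(CPM + 1), a scale that understates differences of low rows, and was tested on simulated data. Sums and figures were made with numpy 2.4.6, pandas 2.3.3 and matplotlib 3.10.9 in Python 3.11.15. Hairpin positions and sequences came from RefSeq (GRCm38.p6) and host genes from GENCODE vM21.

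The miRNAs named were every row that passed, the 24 smallest p-values, other arms, cluster and seed members of passing rows, up to 3 most abundant members of each of 14 lists, the 5 most abundant rows, and the 3 smallest p-values of the interaction and of the arm balance. miR-802-5p, miR-34a-5p, miR-199a-5p, miR-122-5p and the other arms of rows that did not pass were chosen after their values were seen, as were the markers given with values. The members and lists were chosen with earlier results of these data known. Alternatives covered pseudocounts, a filter, scalings, weights, depth, the libraries fitted and each library left out.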

Additional observations from a re-analysis of the deposited data

How the results depend on the processing

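The count of miRNAs that passed in OO against OC, 2 as reported, was also 2 with pseudocounts of 0.25 and 5, with rows averaging at least 10 CPM, with median-of-ratios or TMM scaling, and with limma-voom on read numbers, an alternative chosen after seeing the data; each time these were miR-5099 and miR-182-5p. It was 4 with sample quality weights, 1 with log2 depth as a covariate, 1 in the 6 OC and OO libraries alone and 0 without the 2 libraries that share a title stem; the last 2 had fewer libraries, and for the others the cause was not tested. Leaving out 1 library gave 0 to 2 calls: 2 without CO replicate 1 or 2, 1 (miR-5099) without any CC library, CO replicate 3 or OC replicate 3, and 0 otherwise. The log2 difference then ranged from -1.03 to -0.88 for miR-5099 and from -1.32 to -0.99 for miR-182-5p, with adjusted p-values of 0.00261 to 0.112 and 0.0148 to 0.259. The interaction, with 0 calls, had 1 once log2 depth was added (miR-126-5p, 0.66, limma adjusted p = 0.0410) and 0 in each other setting; the cause was not tested. Arm balance had 0 calls in each of its 16 alternatives. Of 523 values of the 24 miRNAs with the smallest p, 502 kept direction and side of the threshold. A further 19 no longer passed, 2 newly passed and 0 turned direction. All 19 belonged to the 2 called miRNAs: miR-182-5p no longer passed in 13 of its 22 alternatives and miR-5099 in 6 of 22. The other miRNAs had not passed as reported, so the 502 mostly count rows that stayed uncalled. Leaving out a CC or CO library cannot alter the OO-OC difference, so direction could not turn there. The planned edgeR and DESeq2 alternatives were not run, and limma-voom was the only test on read numbers. No paired analysis was possible because the labels pair no animals and a replicate number is only a name, in accession order. The median SE was 0.233 for rows under 10 CPM; how depth limits them was not tested.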

Other observations

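Neighbouring hairpins other than the miR-182 cluster were described as well, and these groups were chosen after their values were seen. miR-871-3p and miR-470-5p, from a cluster on chromosome X, were both lower by value in OO, with log2 differences of -0.83 and -0.54. miR-871-3p was at 4.87, 3.37 and 5.20 CPM in OC and 3.01, 2.65 and 0.955 CPM in OO, without overlap and at very low abundance. The arms of miR-221 and miR-222, known from activated stellate cells and proliferating hepatocytes, had log2 differences of 0.40 (miR-221-5p), 0.16 (miR-221-3p), 0.29 (miR-222-5p) and 0.36 (miR-222-3p). Of them miR-222-3p, at 120, 129 and 128 CPM in OC and 139, 144 and 207 CPM in OO, did not overlap. Those of miR-199a and miR-214 were 0.34 (miR-199a-5p), 0.23 (the row shared by miR-199a-3p and miR-199b-3p), 0.35 (miR-214-3p) and 0.21 (miR-214-5p). The 4 arms of miR-212 and miR-132 had a median of 0.25, each above 0. No miRNA of these groups passed in limma.

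miR-592-5p was at 11.7, 34.5 and 19.4 CPM in OC and at 23.3, 3.95 and 6.59 CPM in OO, a log2 difference of -1.11 with overlapping groups (limma adjusted p = 0.700). miR-338-3p, carried in the insulin list, was at 70.4, 59.4 and 58.9 CPM in OC and 46.0, 52.2 and 41.3 CPM in OO, without overlap (log2 difference -0.43, limma adjusted p = 0.673). The SD was larger in OO than in OC for 197 of the 386 rows.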
